A study of Mus musculus with 12 samples.

Results

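Madcam1-positive floor lymphatic endothelium was described here as 783 cells among 50017 cells (1.57%) of 6 single-cell RNA libraries from mouse lymph nodes. A member had at least 2 UMIs of Madcam1, where a UMI is a tag that marks 1 captured RNA molecule. It also had at least 1 UMI of Pecam1, Cdh5, Prox1 or Mmrn1 in sum, none of the venule genes Fut7 and Chst4, and none of the leukocyte genes Ptprc, Cd79a and Cd3e. The members were thus chosen by the UMI counts of these 10 genes, and the levels of those genes are given as description only. The main comparison group was 3946 cells of the same libraries with a Prox1 UMI, no Madcam1 UMI and the same exclusions.

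Lymph enters a node through the subcapsular sinus, whose outer wall (the ceiling) and inner wall (the floor) are lined by different lymphatic endothelial cells. Floor cells face the lymphoid tissue, touch the macrophages of the sinus and are known for Madcam1, an adhesion molecule for lymphocyte integrins, for the integrin chain Itga2b, for the macrophage growth factor Csf1 and for the chemokine Ccl20. Ceiling cells are known for Ackr4, a receptor that removes chemokines, and cells of the cortical and medullary sinuses for the hyaluronan receptor Lyve1 and for scavenger receptors such as Stab2 and Mrc1.

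The mice were C57BL/6 of 7 to 10 weeks with both alleles of Atg12 floxed (fl/fl), in controls too, a gene of autophagosome formation, and were labelled positive or negative for Cdh5-CreER, a Cre recombinase that is made from an endothelial driver and becomes active when tamoxifen is given. All groups, controls included, received tamoxifen 5 times. Skin was painted with 4% oxazolone, a contact sensitiser, and nodes were taken on day 3 or day 7, or it received the acetone and olive oil vehicle alone. Each combination of treatment and label is 1 library of the CD31 fraction, and the labels do not say whether nodes of several animals were pooled. The p-values below thus measure the spread between these libraries only. Values in series run from vehicle over day 3 to day 7, and in each pair the library with the Cre-negative label comes first.

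The 6 libraries held 45438350 to 76187731 UMIs in all. Members numbered 120 and 99, 103 and 80, and 265 and 116, with a median of 7821 to 11061 UMIs per cell against 6177.5 to 7344 in the comparison cells. Between 9 and 25 cell barcodes were shared by any 2 of these libraries, at most 0.370% of the smaller one. Male and female cells were both present in most libraries, and in unequal parts. Where cells with a Y-linked UMI alone are used below, the day 3 library labelled Cre-negative drops out. It had 18 such members, under the minimum of 20. The share of members with a Y-linked UMI was 55% and 86.9%, 17.5% and 46.3%, and 38.5% and 29.3%, and the share with an Xist UMI was 39.2% and 1.0%, 83.5% and 38.8%, and 52.8% and 46.6%. The day 3 library labelled Cre-negative stood apart in its doublet scores: removing the highest scores took 17.5% of its members, against 1.67% to 5.66% in the others. Free RNA, measured in barcodes with under 50 UMIs, could make up at most 1.16% to 2.06% of the members' UMIs.

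Atg12, the targeted gene, was counted in members at 65.0 and 58.8, 50.3 and 59.8, and 39.2 and 52.9 CPM, which are UMIs scaled to 1000000 per summed class and library. The libraries labelled Cre-positive were not all lower than those labelled Cre-negative, and the gene was not called by label (log2 0.23, SE 0.18, edgeR adjusted p 0.981). If RNA was read from its 3-prime end, which was not checked here, transcripts of a recombined allele may still be counted. These values do not check the labels.

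The upstream sequence of Madcam1 is shown because this gene defines the members, and those of Csf1, Cxcl1 and Mme because they were higher in members and carry the same kind of match. Sequences are from RefSeq on GRCm38.p6, on the strand of the gene and read 5′ to 3′. Madcam1 is shown over the 250 bases before its RefSeq start (chr10:79664309-79664558, plus strand). Csf1 (chr3:107760594-107760642, minus strand), Cxcl1 (chr5:90891154-90891202, plus strand) and Mme (chr3:63295671-63295719, plus strand) are shown over 49 bases around the match. Of several RefSeq starts of Mme the one used here lies inside the gene, which runs from 63241537 to 63386030 on chromosome 3 in GENCODE, so that this stretch is not upstream of the whole gene. Capitals mark a match to GGGANNTTC, letters found in many NF-kB sites, or to the same letters on the other strand, GAANNTCCC. The match begins 69, 153, 71 and 181 bases before the RefSeq start used for Madcam1, Csf1, Cxcl1 and Mme, and in Cxcl1 the matches to both forms overlap.
Madcam1: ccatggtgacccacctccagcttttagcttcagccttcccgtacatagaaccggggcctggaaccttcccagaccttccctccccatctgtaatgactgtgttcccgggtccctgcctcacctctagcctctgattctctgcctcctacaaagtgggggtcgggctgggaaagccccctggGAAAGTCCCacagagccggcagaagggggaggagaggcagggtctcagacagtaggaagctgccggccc
Csf1: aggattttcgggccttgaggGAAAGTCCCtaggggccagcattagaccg
Cxcl1: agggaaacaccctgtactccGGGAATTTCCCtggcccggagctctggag
Mme: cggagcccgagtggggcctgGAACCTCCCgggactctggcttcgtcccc
Such a match stood in 1061 of 32851 promoters (3.23%) over the same 250 bases. Of the 18 genes that are floor markers or lead the higher genes below, 16 had an entry, and 4 held a match, namely Madcam1, Csf1, Mme and Lpar1; the last is not printed. The 1061 are counted over promoter entries and the 4 over genes, and a gene such as Mme has several starts. The 18 genes include the gate gene Madcam1 and were chosen with results of these data known. No enrichment is therefore read from these counts. A match describes the letters and is not a measured site.

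The label was first checked against markers. Prox1, the transcription factor of lymphatic identity, had a UMI in 712 members (90.9%); the gate could admit a member through it but did not require it. Itga2b (GRCm38 chromosome 11, 102453297 to 102470122), which the gate did not use, had a UMI in 75.8% to 87.4% of members, in 8.85% to 27.9% of comparison cells and in at most 0.986% of B cells, gated by at least 2 Cd79a UMIs and no endothelial UMI. After members and comparison cells were thinned to 2000 UMIs the median share was 40.9% in members and 13.7% in comparison cells. Itga2b did not set members apart from Lyve1-positive cells, which are comparison cells with at least 2 Lyve1 UMIs and no Ackr4 UMI. Its median level was 292 CPM in members and 405 CPM in those cells, and it was not called between them. B cells were shallower, with a median of 2790 to 3433 UMIs per cell, and were not thinned. Depth thus differs wherever B cells are set beside members, here and below. Madcam1 itself had a UMI in 6 of 3250 B cells and 0 of them had 2. Of all genes tested against the comparison cells, 22.3% were higher in members and 19.8% lower. These shares are the base for the list counts against those cells in this paragraph. Of 7 blood endothelial genes tested, 0 were higher in members than in the comparison cells and 5 were lower. Vwf, a clotting factor of blood vessels that was not called, had a median of 2.02 CPM in members and 98.0 CPM in venule-gated cells, which had at least 2 UMIs of Fut7 and Chst4 in sum and an endothelial UMI. Against comparison cells with an Ackr4 UMI, 0 of 7 were higher and 1 lower (22.5% and 21.6% of all genes). Against Lyve1-positive cells, 1 of 5 was higher and 0 lower (16.7% and 16.9% of all genes), with a median log2 of 0.77. The blood endothelial list summed to 580 to 893 CPM in members and 1044 to 2111 CPM in comparison cells. The 9 reticular fibroblast markers summed to 40.1 to 187 CPM in members and 76.5 to 201 CPM in comparison cells, with Pdgfra, Lum and Tnfsf11 at 0 in members, and 1 of the 2 tested was higher (Ccl19) and 1 lower (Dcn, log2 -1.39). The 10 macrophage markers summed to 11.5 to 49.5 CPM against 10.8 to 50.0 CPM, with Adgre1 at 0 in members, and 1 of the 2 tested was higher (Lyz2, log2 1.62). Of the mural list, given with Rgs5 below, 2 of 2 tested genes were higher. The T cell list summed to 3.15 to 10.6 CPM, the B cell list to 5.75 to 15.7 CPM, and the 3 granulocyte markers to 0 to 1.57 CPM, with S100a9 and Retnlg at 0 and S100a8 found in 1 library. The part of these cell types in the results was not tested.

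Floor markers that the gate did not use were much higher in members than in Madcam1-negative Prox1-positive cells. Of 11292 genes tested across the 6 library pairs, edgeR's quasi-likelihood test called 4756 (42.1%) at a Benjamini-Hochberg adjusted p under 0.05, 2520 higher (22.3%) and 2236 lower (19.8%). Every count of list genes from this comparison, above and below, stands against that background. The other comparisons have their own shares, given with each. Of the 9 floor markers, Madcam1 and Prox1 belong to the gate, and of the other 7 tested 6 were higher and 0 lower, with a median log2 difference of 3.05 against 0.00 over all genes tested. This list was drawn up with earlier results of these data known and is not independent evidence of its own direction. Depth differed between the classes, as given above, and with cells of at least 3000 UMIs alone 4677 of 11201 genes were called.

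Itga2b stood at 302 and 244, 454 and 332, and 283 and 263 CPM in members, against 28.7 to 169 CPM in comparison cells. All 6 values of members lay above all those of the comparison cells (log2 1.88, SE 0.22, adjusted p 7.2e-06), but Itga2b was not called against Lyve1-positive cells alone. Csf1 (chromosome 3, 107741048 to 107760469) stood at 572 and 817, 582 and 623, and 740 and 617 CPM, against 246 to 445 CPM, again with no overlap (log2 1.18, SE 0.08). Bmp2 (chromosome 2, 133552159 to 133562885), a secreted growth factor, stood at 1002 and 2036, 952 and 1495, and 1662 and 1510 CPM, against 48.9 to 213 CPM (log2 4.11, SE 0.16). Cd44, the leukocyte and endothelial hyaluronan receptor, ranged from 89.2 to 120 CPM against 9.09 to 23.1 CPM (log2 3.05, SE 0.15). Pdpn, a mucin-like lymphatic surface protein on the same list, was the member not called: it ranged from 74.9 to 181 CPM in members and from 122 to 166 CPM in comparison cells.

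Ccl20 (chromosome 1, 83116766 to 83119167), the chemokine that draws cells bearing Ccr6, stood at 1007 and 598, 2390 and 3179, and 425 and 1815 CPM in members. In comparison cells it stood at 9.70 and 16.1, 166 and 184, and 10.6 and 14.5 CPM, so the highest values of both classes came from day 3 and the classes did not overlap (log2 5.38, SE 0.36, adjusted p 2.0e-08). A Ccl20 UMI was found in 34% to 78.8% of members, and in at most 1.38% of B cells. Glycam1 (chromosome 15, 103562759 to 103565081), a mucin that venules display to L-selectin, stood at 9285 and 10570.1, 13357 and 16555, and 12141 and 11193 CPM in members and at 180 to 653 CPM in comparison cells (log2 5.08, SE 0.20). Venule-gated cells, the class best known for Glycam1, had a median of 22643 CPM, and B cells, which should lack it, 42.5 CPM. Free RNA held a median of 3158 CPM of Glycam1, and over all alternatives, subtraction of free RNA included, the log2 difference ranged from 3.79 to 5.30.

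**Figure D1:**
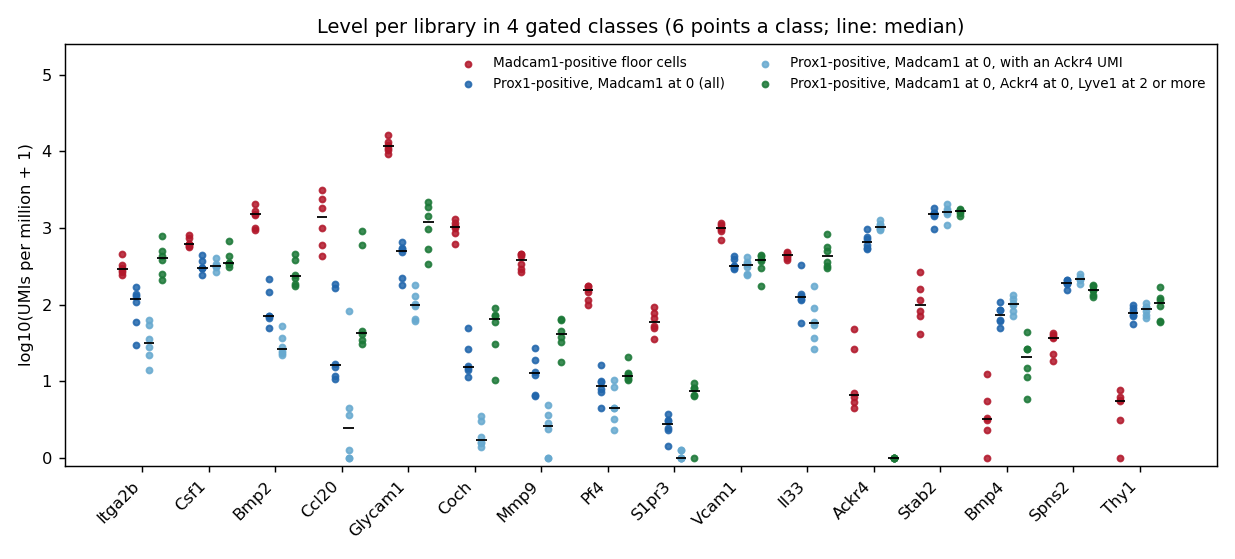
Level of 16 genes in 4 gated classes, as log10 of CPM plus 1 (vertical axis), with 1 point for each of the 6 libraries and a line at the median. Points of Madcam1-positive floor cells (red) lie above the Prox1-positive cells without Madcam1 (blue) for Itga2b through Il33 and below them for Ackr4 through Thy1. Ackr4 is at 0 in the Lyve1-positive class by its gate.

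The 12 genes with the largest higher values, among 1629 genes that met the naming rule, were Coch, Ccl20, Lpar1, Glycam1, Mmp9, Mme, Fgf23, Rgs5, Pf4, C1ql3, Bmp2 and Fyb. Coch (chromosome 12, 51593341 to 51605771), which encodes a secreted matrix protein, led them at 621 and 987, 1155 and 1322, and 863 and 1060 CPM against 10.5 to 48.5 CPM (log2 5.81, SE 0.28, adjusted p 1.0e-09). Lpar1, a receptor for lysophosphatidic acid, ranged from 103 to 200.5 CPM against 1.78 to 11.9 CPM (log2 5.23). Mmp9, a gelatinase that cuts basement membrane collagen, ranged from 269 to 460 CPM against 5.49 to 26.0 CPM (log2 5.07), and Mme, the membrane peptidase neprilysin, from 137 to 189 CPM against 3.25 to 9.31 CPM (log2 4.98). None of these ranges overlapped. Fgf23, a phosphate-regulating hormone, was the most uneven among the 12, at 121 and 31.5, 155 and 327, and 9.69 and 84.7 CPM, and its lowest value lay below the highest comparison value of 13.0 CPM.

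Pf4, a chemokine stored in platelets, stood at 175 and 116, 175 and 158, and 148 and 99.8 CPM in members against 3.50 to 15.2 CPM (log2 4.20, SE 0.19). Itga2b is also a platelet gene, so the platelet list was read beside it: Ppbp, Gp9 and Gp1bb were at 0 in all 783 members and Clec1b was lower in members (log2 -1.56). Itgb3, the partner chain of Itga2b, was not called (log2 0.13). Rgs5, a regulator of G protein signalling best known from pericytes, stood at 269.6 to 439 CPM against 6.25 to 30.4 CPM (log2 4.41). Myh11, a smooth muscle myosin of the same mural list, was at 3.91 to 28.4 CPM against 0.216 to 3.56 CPM (log2 3.71), and Acta2 and Notch3 of that list were too low to be tested, with 41.7 CPM of Acta2 in the day 3 library labelled Cre-negative. The whole list summed to 287 to 504 CPM in members and 8.62 to 42.1 CPM in comparison cells, mostly Rgs5. The day 3 library labelled Cre-negative also had the most members removed by doublet score (17.5%). With the highest doublet scores removed, 1 mural gene was called higher. With cells of at least 3000 UMIs, or members with a Prox1 UMI alone, 1 mural gene was tested, and it was higher. Among cells without a UMI of the fibroblast and mural genes Pdgfra, Pdgfrb and Col1a1, 4731 of 11275 genes were called. With the Cre-positive label this filter kept 98 of 99 members at vehicle and 115 of 116 at day 7. It kept all members of the other libraries, so the count could hardly change and cannot test for mural RNA in members.

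The 12 genes with the largest lower values in members were Pkhd1l1, Ackr4, Edn1, Plce1, Car8, Gdf10, Ctnnal1, Dkk2, Pgm5, Nts, Prelp and Klrb1f. Ackr4 (chromosome 9, 104084157 to 104126933) stood at 25.8 and 5.25, 4.34 and 3.45, and 6.17 and 47.6 CPM in members and at 538 to 974 CPM in comparison cells (log2 -5.45, SE 0.30, adjusted p 3.0e-09). Edn1, the vasoconstrictor peptide endothelin, stood at 0 to 14.1 CPM against 96.8 to 195 CPM (log2 -5.40), Gdf10, a ligand of the BMP family, at 0 to 22.7 CPM against 213 to 320 CPM (log2 -4.73), and Dkk2, a secreted Wnt inhibitor, at 1.74 to 69.6 CPM against 158 to 434 CPM (log2 -4.23). The comparison cells were mostly ceiling-gated, since 2296 of the 3946 had an Ackr4 UMI. Of the ceiling markers all 3 tested were lower (Ackr4, Cav1 at log2 -2.27 and Foxc2 at -1.44).

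Markers of the cortical and medullary sinuses were lower too, at 6 of 8 with 1 higher. Stab2, a scavenger receptor for hyaluronan, stood at 158 and 41.0, 70.3 and 81.6, and 113 and 268 CPM against 975 to 1837 CPM (log2 -3.58, SE 0.21). Mrc1, the mannose receptor, stood at 1.05 to 17.2 CPM against 23.9 to 95.05 CPM (log2 -2.65), and the pentraxin Ptx3 had a log2 of -4.81. The higher one was Kcnj8, a potassium channel subunit, at 7.35 to 77.2 CPM against 2.37 to 13.5 CPM (log2 2.07). Lyve1 itself was not called: it stood at 248 to 358 CPM in members and 192 to 457 CPM in comparison cells. The share of cells with a Lyve1 UMI was 65.3% to 78.6% in members and 13.5% to 33.0% in comparison cells, and at most 0.932% in B cells. Thinned to 2000 UMIs a cell, the shares were 32.1% to 37.9% and 11.4% to 25.6%, which did not overlap either. Of 7 pan-lymphatic genes tested 0 were higher and 5 lower, among them the growth factor receptor Flt4 (log2 -1.11) and the surface glycoprotein Thy1 (log2 -4.33). Flt4 was nevertheless at 58.2 to 124 CPM in members, with a median of 5.50 CPM in venule-gated cells.

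**Figure D2:**
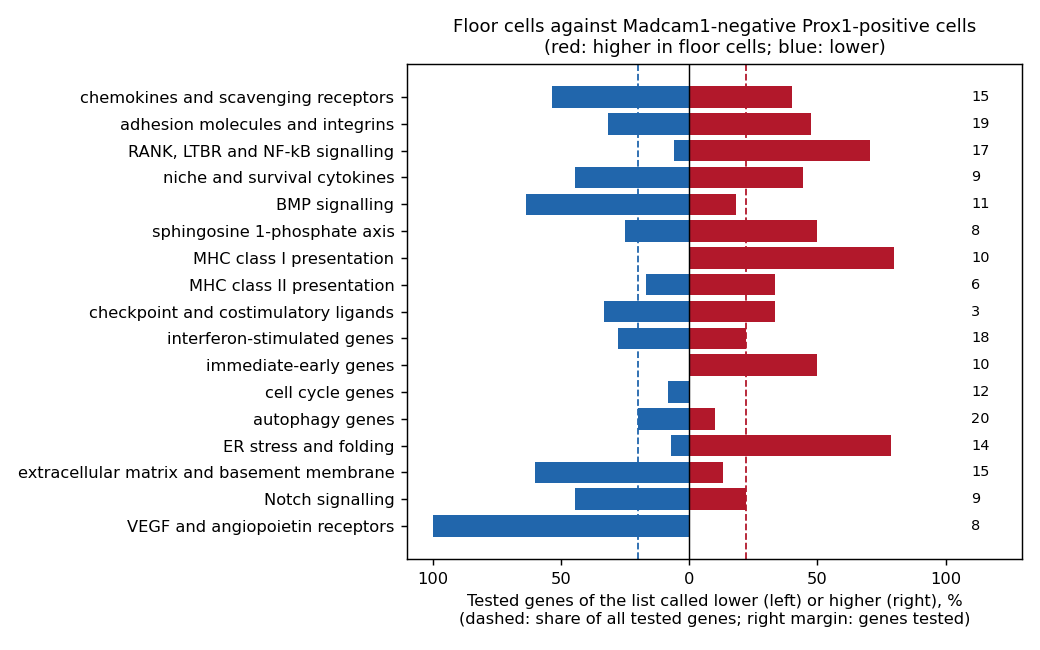
Share of the tested genes of each functional list called lower (to the left) or higher (to the right) in floor cells against Madcam1-negative Prox1-positive cells, in percent. Dashed lines mark the share of all tested genes called in that direction, 19.8% lower and 22.3% higher, and the right margin gives the genes tested. VEGF and angiopoietin receptors lie wholly to the left and MHC class I genes wholly to the right.

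Chemokines and their scavenging receptors were split, with 6 of 15 tested genes higher and 8 lower and a median log2 of -0.90. Cxcl1 and Cxcl2, which draw neutrophils, had log2 values of 3.03 (SE 0.12) and 3.37 (SE 0.35). Cxcl1 stood at 320 and 618, 224 and 573, and 278 and 409 CPM in members and at 32.2 to 79.9 CPM in comparison cells. Cxcl9 and Cxcl10, which draw activated T cells, had 2.35 and 1.55, and Cxcl16, a membrane-bound chemokine, had 1.51. The scavenging receptors Ackr2, Ackr3 and Ackr4 had -1.78, -3.81 and -5.45, and the monocyte chemokines Ccl2 and Ccl7 had -2.26 and -5.03. Ccl7 was counted in members of only 2 libraries. Ccl21a, a T cell chemokine whose reads can be shared with near-identical copies, was lower (log2 -2.03, SE 0.60), and Ccl19, with the same limit, was at 21.1 to 42.5 CPM against 0.593 to 1.93 CPM (log2 4.70).

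Of the receptors and transcription factors of RANK, lymphotoxin beta receptor and NF-kB signalling, 12 of 17 were higher and 1 lower, with a median log2 of 0.40. Birc3 and Tnfaip3, feedback regulators that NF-kB induces, had log2 values of 2.01 (SE 0.11) and 1.34 (SE 0.10). Nfkb2 and Relb, the transcription factors of the noncanonical arm, had 0.93 and 0.92. Relb stood at 220 and 291, 220 and 208, and 284 and 233 CPM against 97.8 to 181 CPM, without overlap. The lower gene was Tnfrsf11a, which encodes RANK, at 93.1 and 93.5, 101 and 102, and 112 and 112 CPM against 156 to 310 CPM (log2 -1.15, SE 0.12). Ltbr, the lymphotoxin beta receptor, was not called (22.7 to 31.2 CPM against 28.8 to 35.9 CPM). With members that have a Y-linked UMI alone, 8 of the list's genes were called higher. Against Lyve1-positive cells, described below, 7 of the 17 were higher and 2 lower, where 16.7% and 16.9% of all genes were.

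Adhesion molecules were split, with 9 of 19 higher and 6 lower and a median log2 of 0.23. Vcam1, the ligand of lymphocyte integrins, stood at 708 and 1084, 923 and 1154, and 959 and 1013 CPM against 289 to 435 CPM (log2 1.66, SE 0.10). Icam1, a ligand for leukocyte integrins, stood at 265 to 359 CPM against 115 to 225 CPM (log2 1.19), and the selectin Sele had a log2 of 1.59 while Selp had -1.01. Itga6, a laminin receptor chain, had -1.69 and the sialomucin Podxl -2.53. Venule-related genes that the gate did not use were higher in 3 of 4 cases: Glycam1, the sulfotransferase Chst2 (222 to 263 CPM against 23.5 to 47.5 CPM, log2 3.06) and Enpp2, which makes lysophosphatidic acid (log2 0.66). The fourth, the glycosyltransferase Gcnt1, was lower (log2 -1.58). Enpp2 was not called with Y-linked cells alone, at an adjusted p of 0.0554.

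BMP signalling genes were mostly lower, with 7 of 11 lower and 2 higher and a median log2 of -0.83. The higher ones were Bmp2, described above, and Id2, a target of the pathway, at 111 and 254, 208 and 241, and 111 and 160 CPM against 17.9 to 40.9 CPM (log2 2.75, SE 0.14). The ligands Bmp4 and Bmp6 had -4.31 and -3.29, and the other targets Id1 and Id3 had -1.35 and -2.14. Bmp4 was at 0 to 11.3 CPM in members and 48.5 to 109 CPM in comparison cells.

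In the sphingosine 1-phosphate axis 4 of 8 genes were higher and 2 lower. S1pr3, a receptor, stood at 66.5 and 48.3, 78.1 and 93.1, and 34.8 and 52.2 CPM against 0.431 to 2.80 CPM (log2 5.28, SE 0.23). Spns2, the exporter that releases the lipid into lymph, stood at 17.6 to 42.3 CPM against 153 to 209 CPM (log2 -2.44, SE 0.15). The degrading enzymes Sgpl1 and Sgpp1 had 1.16 and 1.66. S1pr1, another receptor, was called by a narrow margin (log2 0.21, adjusted p 0.0482) and under 6 of 18 alternatives.

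Among niche cytokines 4 of 9 were higher and 4 lower. Il33, an alarmin, stood at 405 and 488, 448 and 469, and 379 and 437 CPM against 56.0 to 330 CPM (log2 1.91, SE 0.19), and Vegfc, a lymphatic growth factor, had 1.04. Il7, a survival factor for lymphocytes, stood at 15.6 to 30.5 CPM against 53.2 to 74.8 CPM (log2 -1.39), and the platelet-derived growth factors Pdgfa and Pdgfb had -2.41 and -3.18. Vegfc was not called with Y-linked cells alone, at an adjusted p of 0.724.

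Antigen presentation genes of MHC class I were higher in 8 of 10 cases with 0 lower, by small amounts and a median log2 of 0.59. B2m, the light chain, had 0.61 (SE 0.07), the immunoproteasome subunit Psmb8 0.74 (SE 0.08) and the peptide loader Tapbp 0.67 (SE 0.07). H2-K1 and H2-D1, whose sequences are alike, had 0.50 and 0.43. Of 6 class II genes tested, Cd74, the invariant chain, was at 361 and 445, 434 and 393, and 488 and 326 CPM against 63.0 to 115 CPM (log2 2.50, SE 0.14). H2-Ab1 was higher by 0.73 and H2-Aa lower by -0.68, and both had at most 37.8 CPM in members. Against comparison cells taken without the venule and leukocyte exclusions, Cd74 was not called (adjusted p 0.088) and H2-Ab1 was lower. Cd274, which encodes the checkpoint ligand PD-L1, stood at 135 and 108, 115 and 89.7, and 78.0 and 67.3 CPM against 24.8 to 66.2 CPM (log2 1.48, SE 0.15).

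Endoplasmic reticulum folding genes were higher in 11 of 14 cases, with 1 lower and a median log2 of 0.46. The chaperone Hspa5 had 0.75 (SE 0.08) and Sdf2l1, its co-chaperone, 1.25 (SE 0.13), while Trib3, a stress-induced pseudokinase, had -2.80. All 8 receptors and ligands of the VEGF and angiopoietin list were lower, with a median of -0.79. They include Kdr (-0.37), Tek (-1.88), the receptor of the angiopoietins, and Angpt2 (-3.18). Of 20 autophagy genes 2 were higher, against 22.3% of all genes, and 4 lower, against 19.8%, with a median of -0.04. Atg3, the conjugating enzyme for LC3, had 0.52 and the cargo receptor Optn 0.67, while Tfeb, the transcription factor of lysosome genes, had -1.07 and Atg12 -0.10 (not called).

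The comparison with ceiling-gated cells alone (2296 cells with an Ackr4 UMI) called 4743 of 10756 genes (44.1%), 2425 higher (22.5%) and 2318 lower (21.6%). It shares the members with the comparison above, so its values are given side by side. Coch had a log2 of 9.63 (SE 0.23), Lpar1 7.91, Brinp1 7.85, Ccl20 7.76, Mmp9 7.72, Fgf23 7.58 and Mme 7.47, and Itga2b had 3.38 (SE 0.19). Itga2b had a median of 30.8 CPM in ceiling-gated cells. Coch, Ccl20 and Mmp9 were near 0 there, at medians of 0.749, 1.48 and 1.65 CPM, so their log2 values rest on few UMIs of that class. Lyve1 was higher in members here (log2 1.11, SE 0.19), and Pdpn was lower by a narrow margin (log2 -0.41, adjusted p 0.0435), called under 6 of 14 alternatives. It was not called with DESeq2 or without either vehicle library or either day 7 library, at an adjusted p of up to 0.157. The lowest values belonged to Pkhd1l1 (-6.60), Edn1 (-5.87), Car8 (-5.58), Plce1 (-5.52) and Gdf10 (-5.19).

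Against 539 Lyve1-positive cells, which had at least 2 Lyve1 UMIs and no Ackr4 UMI, 3073 of 9150 genes were called (33.6%), 1531 higher (16.7%) and 1542 lower (16.9%). Coch (log2 4.26, SE 0.21), Glycam1 (3.68), Lpar1 (3.65), Lcn2 (3.55), Pf4 (3.54) and Ccl20 (3.46) led the higher genes. Itga2b was not called here, at a median of 292 CPM in members and 405 CPM in Lyve1-positive cells (log2 -0.23, SE 0.14, adjusted p 0.23). The lower genes were led by Mrc1 (-4.96, SE 0.20), Thy1 (-4.69), Lsamp (-4.48), Ntn4 (-4.45) and Hmcn1 (-4.26), with the scavenger receptors Marco (-3.83) and Stab2 (-3.75) and the lymphatic matrix protein Reln (-3.68) also among the 12. All 10 immediate-early genes were higher in members than in Lyve1-positive cells, and 5 of 10 were higher than in the main comparison cells. Against Lyve1-positive cells the RANK and NF-kB list had 7 of 17 higher and 2 lower (median log2 0.08). Endoplasmic reticulum folding genes had 6 of 13 higher and 0 lower, and MHC class I genes 6 of 10 and 0. Niche cytokines had 1 of 9 higher and 5 lower, and VEGF and angiopoietin genes 2 of 8 and 6. BMP genes had 3 of 10 higher and 4 lower.

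Members differed among themselves with the Madcam1 count that chose them. The 395 cells just outside the threshold, with 1 Madcam1 UMI, had a median over libraries of 371 CPM of Ccl20, 628 CPM of Bmp2 and 148 CPM of Ackr4. The 184 members just inside it, with 2 UMIs, had 527, 873 and 18.8 CPM. All members together had 1411, 1502 and 5.71 CPM, and cells without a Madcam1 UMI 15.3, 70.4 and 663 CPM. Cells with 1 Madcam1 UMI therefore stood between the classes for these genes. Itga2b was at 237 CPM with 1 UMI, 316 CPM with 2 and 292 CPM in all members. These values describe the rule and carry no test.

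**Figure D3:**
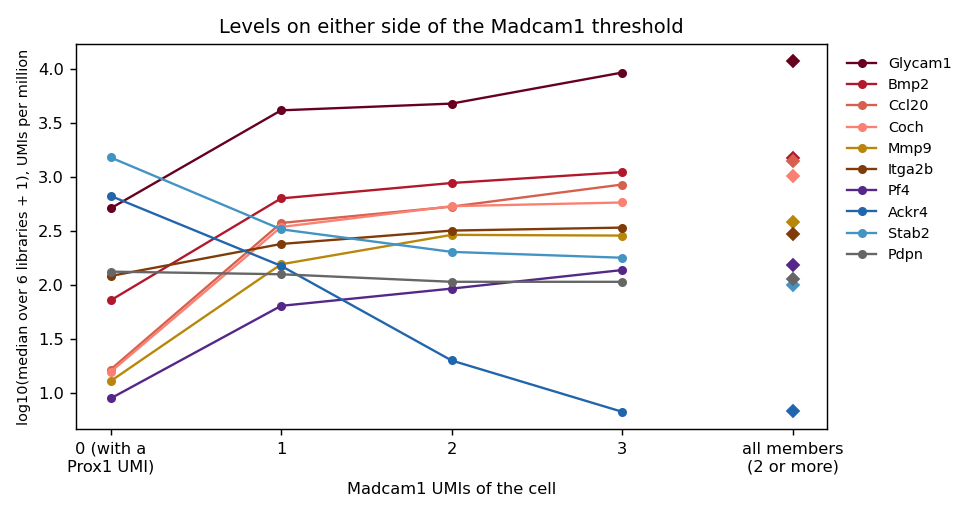
Level of 10 genes, as log10 of the median over 6 libraries of CPM plus 1, in cells with 0 (and a Prox1 UMI), 1, 2 or 3 Madcam1 UMIs, joined by lines, and in all members (diamonds). Ackr4 falls from 663 CPM at 0 UMIs to 18.8 CPM at 2, and Ccl20 rises from 15.3 to 527 CPM.

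The 71 members without a Prox1 UMI were lower than the 712 with one in most of the floor genes compared, which was not tested. Summed over libraries they had 673 CPM of Bmp2, 388 CPM of Csf1 and 767 CPM of Coch, against 1498, 682 and 978 CPM. Cd44 was at 42.9 against 104 CPM, Itga2b at 246 against 312 CPM and Glycam1 at 10492 against 12083 CPM. Of these genes Ccl20 alone was not lower, at 1440 against 1365 CPM, and in members without a Prox1 UMI it ranged from 0 to 2659 CPM over the libraries. The lymphatic marker Pdpn was at 51.9 against 114 CPM. The blood endothelial genes Flt1, Emcn and Vwf were at 433, 348 and 63.2 CPM against 78.5, 27.4 and 2.03 CPM. In venule-gated cells their medians over libraries were 722, 430 and 98.0 CPM. Whether the 71 members are lymphatic was not tested. Among members with a Prox1 UMI alone, 4808 of 11243 genes were called in the main comparison.

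Members made up 13.7% and 12.9%, 19.8% and 11.9%, and 23.1% and 11.2% of the lymphatic-gated cells, a base of members plus all cells with a Prox1 UMI and the same exclusions. The exact binomial 95% intervals were 11.5 to 16.2% and 10.6 to 15.5% at vehicle, 16.4 to 23.5% and 9.58 to 14.6% at day 3, and 20.7 to 25.6% and 9.33 to 13.3% at day 7; they cover counting error only. The 3 libraries labelled Cre-negative averaged 18.9% ± 4.73 (SD, n = 3) and those labelled Cre-positive 12.0% ± 0.854 (SD, n = 3). The groups did not overlap, and an exact two-sided permutation test gave p = 0.1, the smallest that 3 libraries against 3 allow. That test ignores the pairing by treatment, and both SDs include the spread between treatments. At vehicle the shares of 13.7% and 12.9% lay close, with overlapping intervals. Thinned to 2000 UMIs a cell, the shares were 7.14% and 4.40%, 10.0% and 6.36%, and 9.17% and 3.91%, again without overlap between labels (exact permutation p = 0.1). Cells under 2000 UMIs were left out, and the whole gate, exclusions included, was applied again to the thinned counts. A cell excluded at full depth could thus enter. The thinned shares of cells with a UMI of single genes, given above, kept the classes set by all UMIs. Of all cells kept, members made up 1.20% and 1.37%, 1.52% and 0.688%, and 3.29% and 1.84%. On that base the labels overlapped, and at vehicle the library labelled Cre-positive had the higher share. Depth and the mix of sexes differ between these libraries, and their part in the shares was not tested.

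**Figure D4:**
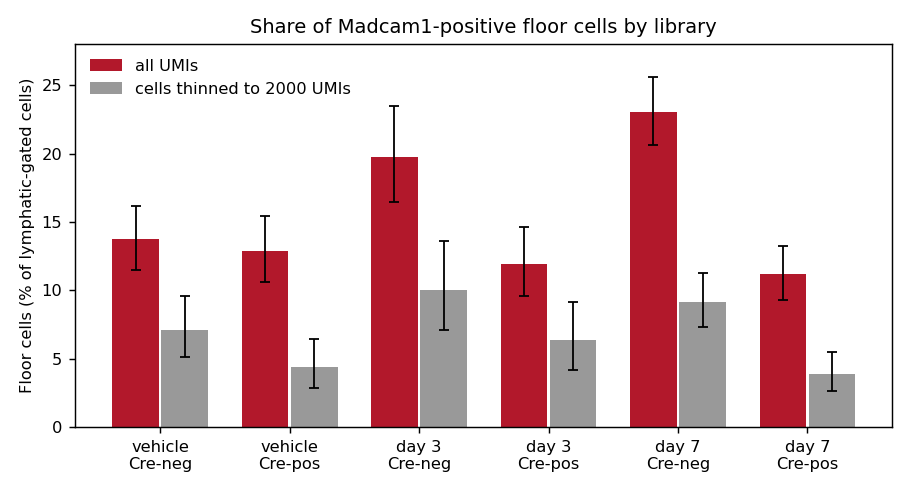
Share of Madcam1-positive floor cells among lymphatic-gated cells in each library, in percent, from all UMIs (red) and after thinning to 2000 UMIs (grey). For the grey bars cells under 2000 UMIs were left out and the gate was applied to the thinned counts. Bars carry exact binomial 95% intervals. The libraries labelled Cre-negative reach 19.8% at day 3 and 23.1% at day 7, and the others lie between 11.2% and 13.7%.

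With oxazolone, 2 genes of members were called at day 3 against vehicle and 0 at day 7. The fit over the 6 libraries took treatment and label as additive terms and had 2 residual degrees of freedom. At day 3 it called 2 of 10060 genes (0.0199%), 1 higher (0.00994%) and 1 lower (0.00994%). At an unadjusted p under 0.05 there were 937, and DESeq2's own test called 5. At day 7 it called 0 (0%). At an unadjusted p under 0.05 there were 264, and DESeq2's own test called 0.

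Lcn2 (chromosome 2, 32384633 to 32388252), which encodes lipocalin, an iron-siderophore binding protein of inflammation, was the gene that was higher at day 3. It stood at 72.0 and 92.4 CPM at vehicle, 417 and 660 CPM at day 3 and 82.4 and 116 CPM at day 7. The exact Poisson 95% intervals were 58.0 to 88.3 and 74.1 to 114 CPM at vehicle and 381 to 457 and 607 to 716 CPM at day 3. The log2 change was 2.71 (SE 0.19, edgeR adjusted p 0.0012), higher in both labels, and at day 7 it was 0.24 (adjusted p 1.00). The Lcn2 levels of comparison cells were 37.9 and 25.8, 24.8 and 42.5, and 38.8 and 20.9 CPM. The joint test of treatment by class called 1 of 11292 genes (0.00886%), which was Lcn2 (adjusted p 0.0385), with a difference of response of 2.57 at day 3 and 0.40 at day 7 on the log2 scale. Lcn2 is also a neutrophil gene. The 3 granulocyte markers summed to 1.57 CPM in the vehicle library labelled Cre-negative, from S100a8, and to 0 in the other 5; in comparison cells they summed to 0 to 109 CPM. Without the day 7 library labelled Cre-negative the day 3 call was lost, at an adjusted p of 0.0987. The joint call was lost at 0.142 with the highest doublet scores removed and 0.252 with cells of at least 3000 UMIs. Without the replicate block the adjusted p was 1. The call was also lost without the day 3 library labelled Cre-negative, where the day 3 difference was 1.93. It was lost with Y-linked cells alone too (1.56), which drops that same library.

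Zg16, which encodes a lectin of secretory granules, was the gene that was lower at day 3; its mean of under 50 CPM puts it outside the naming rule, and it was picked once its values were known. Its levels were 85.3 and 55.7, 11.3 and 9.20, and 51.1 and 52.2 CPM (log2 -2.74, SE 0.30, adjusted p 0.0274). Both day 3 values lay below the other 4. In comparison cells it ranged from 32.8 to 119 CPM, with 57.7 and 32.8 CPM at day 3, and the joint test did not call it (adjusted p 1). Without the day 3 library labelled Cre-negative its adjusted p was 0.812, without the day 3 library labelled Cre-positive 0.15 and without the day 7 library labelled Cre-negative 0.132. With the highest doublet scores removed it was 0.0777. With Y-linked cells alone, which also drops the day 3 library labelled Cre-negative, Zg16 had a log2 of -2.08 and was not called.

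Ccl20 did not pass the test for treatment. In members its day 3 log2 was 1.72 (SE 0.49, adjusted p 0.37), and its day 3 values of 2390 and 3179 CPM were the highest of the 6. The joint test did not call it (adjusted p 0.381). Among other values at day 3, Vegfc was at 39.1 and 47.1 CPM against 10.2 and 12.6 CPM at vehicle (log2 1.94, adjusted p 0.149), and Cxcl9 at 499 and 646 CPM against 285 and 93.5 CPM (adjusted p 0.46). Itga2b, Csf1, Bmp2, Glycam1 and Coch were not called at either day; of these, Itga2b had a day 3 log2 of 0.55 (SE 0.17) and Csf1 -0.17 (SE 0.22). All 10 tested cell cycle genes had day 3 values above 0 (median 0.65) and all 10 day 7 values below 0 (median -1.07), and 0 were called. The labels differed at day 7: of the 7 genes also tested by label, 1 was above vehicle with the Cre-negative label and 4 with the Cre-positive label. Over the alternatives the day 3 median was lowest, at 0.17, with Y-linked cells alone, which also lacks the day 3 library labelled Cre-negative. It was highest, at 2.88, without the vehicle library labelled Cre-negative. The day 7 median ran from -3.09 (without the day 7 library labelled Cre-positive) to 0.24 (without the one labelled Cre-negative). Without an expression filter 2 of 12 cell cycle genes were called higher at day 3 and 3 of 12 lower at day 7. Of all 18699 genes, 128 were called higher at day 3 and 34 lower at day 7. Immediate-early genes, which cells switch on within minutes of handling or stimulation, had the opposite sign at day 3: 0 of 10 had values above 0 (median -0.91), and 0 were called. Over the alternatives that median ran from -1.38 (without the day 3 library labelled Cre-positive) to -0.22 (Y-linked cells alone). The latter also lacks the day 3 library labelled Cre-negative, whose removal alone gave -0.32. Without an expression filter 6 of 10 immediate-early genes were called lower, where 114 of all 18699 genes were.

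**Figure D5:**
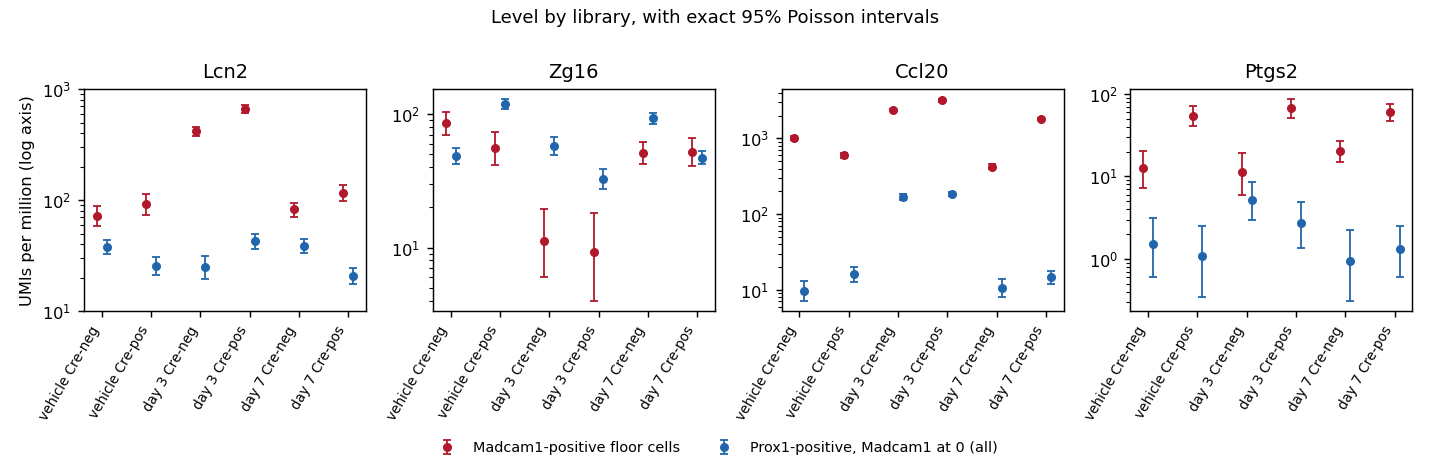
Level of Lcn2, Zg16, Ccl20 and Ptgs2 in floor cells (red) and in Prox1-positive cells without Madcam1 (blue) by library, in CPM on log axes, with exact 95% Poisson intervals. Lcn2 in floor cells is at 417 and 660 CPM at day 3 and between 72.0 and 116 CPM elsewhere, while in the comparison cells it stays between 20.9 and 42.5 CPM.

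No gene of members was called by label. The fit called 0 of 9613 genes (0%). At an unadjusted p under 0.05 there were 486, and DESeq2's own test called 12, each of them higher with the Cre-positive label. The lowest adjusted p belonged to Ptgs2, the inducible cyclooxygenase that starts prostaglandin synthesis, a gene picked once its values were known. Its levels were 12.5 and 54.6, 11.3 and 66.7, and 20.3 and 59.7 CPM, higher in the library labelled Cre-positive in 3 of 3 pairs (log2 2.03, SE 0.24, adjusted p 0.083). In comparison cells it was at 0.95 to 5.25 CPM. Its adjusted p ranged over the alternatives from 4.3e-13 to 1.00.

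The immediate-early genes leaned the same way: all 10 had values above 0 by label, with a median log2 of 0.99 against 0.00 over all genes, and 0 were called. Over the alternatives that median ran from 0.50 (without the day 3 library labelled Cre-positive) to 1.38 (without the day 7 library labelled Cre-negative). Without an expression filter 7 of 10 were called higher, where 74 of all 18699 genes were. With DESeq2 it was 2 of 10, where 12 of all 9613 genes were. Fos had 1351 and 2526, 360.2 and 1548, and 1286 and 1417 CPM, with the lowest value in the day 3 library labelled Cre-negative. Within pairs 10 of 10 were higher in the library labelled Cre-positive at vehicle and at day 3, and 5 of 10 at day 7. Blood endothelial and cell cycle genes leaned the other way, with 0 of 6 (median -0.78) and 0 of 7 (median -0.70) above 0. Of these 0 were called, and in the day 7 pair 4 of 7 cell cycle genes were higher with the Cre-positive label. Of the 20 autophagy genes 12 had values above 0 and 0 were called, with a median of 0.03. Cdo1, the cysteine dioxygenase gene beside Atg12, was likewise picked once its values were known. Its levels were 1.57 and 19.96, 6.08 and 9.20, and 3.52 and 19.7 CPM, higher in 3 of 3 pairs and not called (log2 2.21, SE 0.50, adjusted p 0.439). In comparison cells they were 4.74 and 29.0, 3.85 and 19.8, and 5.89 and 22.1 CPM, also higher in 3 of 3 pairs. Without an expression filter Cdo1 was called by label in members (edgeR adjusted p 0.000248).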

How the data were processed

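The deposited files give UMI counts per gene and barcode, made by the authors with Cell Ranger (version 4 per the file headers, 7.0.1 with build mm10 per the submitters' processing notes), and list every barcode. The values are raw deposited counts, with no column left unassigned. Kept barcodes had at least 1000 UMIs, at least 500 genes and no more than 10% mitochondrial UMIs, in 6 CD31 libraries of 6316 to 11636 cells. No doublets were removed in the main values. UMIs of each class were summed per library (at least 20 cells) and tested with edgeR 4.0.16 (R 4.3.3), using its default expression filter, TMM scaling and the quasi-likelihood F test. Class comparisons had library as a block, treatment and label fits had both as additive terms, and gate genes were left out of the results. Each SE is the absolute log2 over the square root of F. CPM are UMIs scaled to 1000000 per summed class and library. DESeq2 1.42.0 and scanpy 1.11.5 (Scrublet) served in alternatives.

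Named genes were the 12 largest changes in each direction (10 for treatment and label) among genes called at 0.05, averaging at least 50 CPM and moving alike in every pair; predicted, ribosomal, haemoglobin, immunoglobulin and sex-linked genes were passed over, and list members could be named. The members, gene lists and rule were chosen with earlier results of these data known. Coordinates are GENCODE M21 (GRCm38), in which 32158 of 32285 listed genes (99.6%) were found. The main class comparison and the day 3 and label fits were also run on simulated counts. These held no library effects, and changes were placed only in genes above 50 CPM. The library block was thus not exercised, and the joint test was not simulated. The added reporter feature mRFP, listed in 4 CD31 libraries only, was left out of fits.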

Additional observations from a re-analysis of the deposited data

Results flagged for a closer look

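The response of Lcn2 to treatment differed between floor cells and Madcam1-negative Prox1-positive cells by the joint test (edgeR adjusted p 0.0385), as described above, with values of 417 and 660 CPM in floor cells at day 3 against 24.8 and 42.5 CPM in the comparison cells.

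A UMI of mRFP, a reporter feature that the comparisons do not use, was found in 7.07% of floor cells at vehicle, 13.75% at day 3 and 7.76% at day 7 in the libraries labelled Cre-positive. The day 7 library labelled Cre-negative lists the feature and had it in 0 floor cells, which allows up to 1.13% of floor cells with a UMI and sets no limit on the share that expresses it. Those 3 libraries had it in 6.66%, 12.8% and 7.81% of comparison cells and in at most 0.162% of B cells.

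The gate for floor cells also passed cells in the CD45 libraries, 21 of 45341 in all. In the libraries labelled Cre-negative it passed 0.0968% of cells at day 3 (8 cells, of which 1 had a Prox1 UMI) and 0.0523% at day 7 (4 cells, of which 3 had one). Of these 12 cells 1 had an Itga2b UMI, from day 7. These shares were noted because they lie above the limit for a count of 0, which any count above 3 does; the other 4 CD45 libraries passed 1 to 3 cells each.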

How the results depend on the processing

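Of the counts of called genes, those of the class comparisons stayed within 1.5 times of the main count under every alternative except the use of cells with a Y-linked UMI alone (3148 against the main cells, from 5 libraries) and DESeq2 (2031 against Lyve1-positive cells). The counts for treatment, label and their interaction with class were not stable. Without an expression filter they were 242 at day 3, 41 at day 7, 102 by label and 96 for the interaction. With DESeq2 they were 5 at day 3 and 12 by label, with the highest doublet scores removed 1 at day 3 and 1 by label, and with at least 3 Madcam1 UMIs 7, 15 and 3 at day 3, by label and for the interaction. With Y-linked cells alone they were 4 at day 7 and 0 for the interaction, which was 3 with free RNA subtracted and 0 with cells of at least 3000 UMIs. Leaving out 1 library gave 0 (without day 7 Cre-negative) to 280 (without vehicle Cre-negative) at day 3, 0 to 42 (without day 7 Cre-positive) at day 7, 0 to 113 (without day 7 Cre-positive) by label and 0 (without day 3 Cre-negative) to 140 (without vehicle Cre-negative) for the interaction, with 1 residual degree of freedom; a library left alone in its treatment is assumed to vary like the others. The cause was not tested.

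The labels carry no replicate numbers, and the library block pairs classes of 1 library. The label fit compares libraries within each treatment through its treatment term. Beyond that, no paired analysis was possible because the labels give label and treatment groups no shared replicate number. With no replicate block the class comparison called 3944 genes and the interaction 0.

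The share of floor cells fell with thinning, to 7.14% and 4.40%, 10.0% and 6.36%, and 9.17% and 3.91%, and with a threshold of 3 for Madcam1 became 10.4% and 10.0%, 15.3% and 10.2%, and 16.5% and 9.28%. On this base the labels did not overlap under either, unlike the shares of all cells kept given above.

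Of the single-gene values, 3 reversed. Against comparison cells without the exclusions H2-Ab1 was at -1.92 and Lyz2 at -0.45, and with Prox1-positive members Nrp1 against ceiling-gated cells was at -0.16. Another 321 lost the call, 7 gained it and 7227 kept direction and call. Depth limits every group, with 80 to 265 floor cells a library. Each group is 1 library, and which animals it holds is not given in the sources used here.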

Other observations

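Genes of the extracellular matrix were lower in floor cells than in Madcam1-negative Prox1-positive cells in 9 of 15 cases and higher in 2, with a median log2 of -1.14. Tnc, the glycoprotein tenascin C, had -3.00 (SE 0.15), the perlecan gene Hspg2 -2.0 (SE 0.10) and the basement membrane collagens Col4a1 and Col4a2 -1.14 and -1.57. Lama5, a laminin chain, was the clearest exception, at 54.8 and 50.4, 65.1 and 40.2, and 68.3 and 59.7 CPM against 30.4 to 38.5 CPM (log2 0.92, SE 0.11).

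Notch signalling genes had 4 of 9 lower and 2 higher. The receptor Notch1 had -1.11 and the ligands Jag1 and Jag2 -1.03 and -1.40, while the ligand Dll4 had 0.94 and the target Hes1 0.37. Interferon-stimulated genes stood near the background, with 4 of 18 higher and 5 lower against 22.3% and 19.8% of all genes. The transcription factor Irf1 had 0.73, and Ifit3 and Gbp2 had -0.77 and -0.75. In floor cells by label, interferon-stimulated genes were higher in the library labelled Cre-positive in 5 of 18 cases at vehicle, 15 of 18 at day 3 and 17 of 18 at day 7, and 0 were called.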
